A study of Mus musculus with 244 samples.

Results

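The comparison described here set the somatic cells of primary follicles against those of transitioning follicles on library plate 1. A primary follicle has a full layer of cuboidal granulosa cells, whereas a transitioning follicle has a mixed layer of squamous and cuboidal cells. Of the 244 cells of the series (185 somatic cells and 59 oocytes), 5 somatic cells of plate 1 carry a primary title and 8 a transitioning title. For 1 cell of each title the metadata deposited with the counts name another stage (the primary cell as secondary, the transitioning cell as primary), and both were left out, which leaves 4 primary against 7 transitioning cells, each weighed alike. The replicate numbers of the titles name the cells below: primary replicates 1 to 4 and transitioning replicates 1 to 7.

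Ovaries were taken at postnatal day 6 from CD-1, a mouse stock kept outbred, and each cell was picked by hand from a staged follicle and made into its own SMART-Seq2 library, a method that reads whole polyadenylated transcripts and does not tag molecules. By the protocol in the labels, primary follicles spent 10 min in Accutase, an enzyme mix that detaches cells from each other, and were drawn through a 30 µm pipette, whereas transitioning follicles spent 5 min in Accutase and were drawn through a 20 µm pipette. Ovaries of several animals were pooled, and the animal behind a given cell is not known. Each stage is thus 1 sample of several cells, and no test, p-value or standard error is given. The sources differ on the time in the enzyme for primary follicles, for which 5 min is also given. Stage, pipette and plate row (B for primary, C for transitioning) go together and cannot be told apart.

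When a follicle leaves the resting pool, its squamous pregranulosa cells become cuboidal and begin to divide, and the layer takes on the receptors, hormones and junctions of granulosa cells. Fshr encodes the receptor for follicle-stimulating hormone, Cyp19a1 the aromatase that makes estrogen, Inhbb the beta B subunit shared by inhibin B and activin B, and Amh the anti-Mullerian hormone that restrains the activation of other follicles. Granulosa cells also feed the oocyte through gap junctions and build the basement membrane around the follicle.

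Promoters are shown for a marker seen in primary but not in transitioning cells (Fshr) and for a marker seen in both stages (Inhbb). The third is that of the gap junction gene with no overlap between the stages (Gja1). They are RefSeq sequences of build GRCm38.p6, read 5′ to 3′ on the strand of the gene, with the 50 bases from the transcription start in capitals at the end. The promoter of Fshr lies at chr17:89200626-89200925 on the minus strand, that of Inhbb at chr1:119422199-119422498 on the minus strand and that of Gja1 at chr10:56377050-56377349 on the plus strand.
Fshr: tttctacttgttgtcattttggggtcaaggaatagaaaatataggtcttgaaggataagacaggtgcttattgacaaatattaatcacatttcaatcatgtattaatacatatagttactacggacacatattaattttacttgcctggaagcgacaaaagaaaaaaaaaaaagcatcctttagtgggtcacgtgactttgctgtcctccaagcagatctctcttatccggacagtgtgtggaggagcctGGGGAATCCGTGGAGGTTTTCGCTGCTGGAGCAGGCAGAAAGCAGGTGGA
Inhbb: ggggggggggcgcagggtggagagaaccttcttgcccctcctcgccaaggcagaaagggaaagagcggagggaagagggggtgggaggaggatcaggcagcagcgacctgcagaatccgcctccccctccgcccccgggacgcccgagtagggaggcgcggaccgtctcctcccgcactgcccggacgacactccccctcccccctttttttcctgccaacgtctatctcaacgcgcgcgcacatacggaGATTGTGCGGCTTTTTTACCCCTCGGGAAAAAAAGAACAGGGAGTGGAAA
Gja1: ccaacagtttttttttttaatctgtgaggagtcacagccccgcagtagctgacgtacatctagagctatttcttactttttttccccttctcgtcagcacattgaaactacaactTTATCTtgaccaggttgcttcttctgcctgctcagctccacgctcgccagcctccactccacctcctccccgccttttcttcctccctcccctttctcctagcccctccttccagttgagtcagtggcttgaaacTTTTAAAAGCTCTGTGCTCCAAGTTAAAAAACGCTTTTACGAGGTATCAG
Both strands were searched for AAGGTCA, which nuclear receptors of the NR5A kind bind, TGTTTAC, a forkhead motif, AGATAA, which factors such as Gata4 bind, and TGACGTCA, the cyclic AMP response element. The only match was 1 GATA motif in the Gja1 promoter, on the minus strand and 135 bases before the start, the capitals inside that sequence. Of 32851 promoters of this length, 4.72% held the NR5A motif, 3.65% the forkhead motif, 11.2% the GATA motif and 1.79% the cyclic AMP response element. RefSeq promoters were used for 5 of the 6 genes looked up, and Amh is named only. Fshr itself lies on chromosome 17 (88984952 to 89200675), Cyp19a1 on chromosome 9 (54165937 to 54268110), Inhbb on chromosome 1 (119415465 to 119422248), Amh on chromosome 10 (80805243 to 80807648) and Gja1 on chromosome 10 (56377330 to 56402513), all protein-coding in GENCODE M21 on GRCm38. Of 82 described genes with a position there, 38 are overlapped by another annotated gene (Foxl2 by Foxl2os, Fstl3 by Prss57), and as the strand used in counting is not stated, reads of such pairs cannot be told apart.

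The total estimated count per cell was 94646, 95104, 409310 and 380115 in primary replicates 1 to 4, against 25084 to 360450 (median 85129) in the transitioning cells. Reads fell on 2488, 2123, 3428 and 4167 genes in the primary cells and on 1140 to 2342 genes in the transitioning cells, so the groups overlap in both measures. After every cell was thinned to 25072 counts, 1726 to 2990 genes remained in primary cells and 1023 to 1760 in transitioning cells. A group of 4 transitioning cells (replicates 2, 4, 5 and 7) had under 2000 detected genes in the metadata, as no primary cell did. The granulosa module score of the authors was 0.300 to 0.539 in primary cells and 0.0184 to 0.344 in transitioning cells. Because these measures move with stage, values without the 4 transitioning cells with few genes are given for some results. The part of cell quality in the results was not tested.

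**Figure D1:**
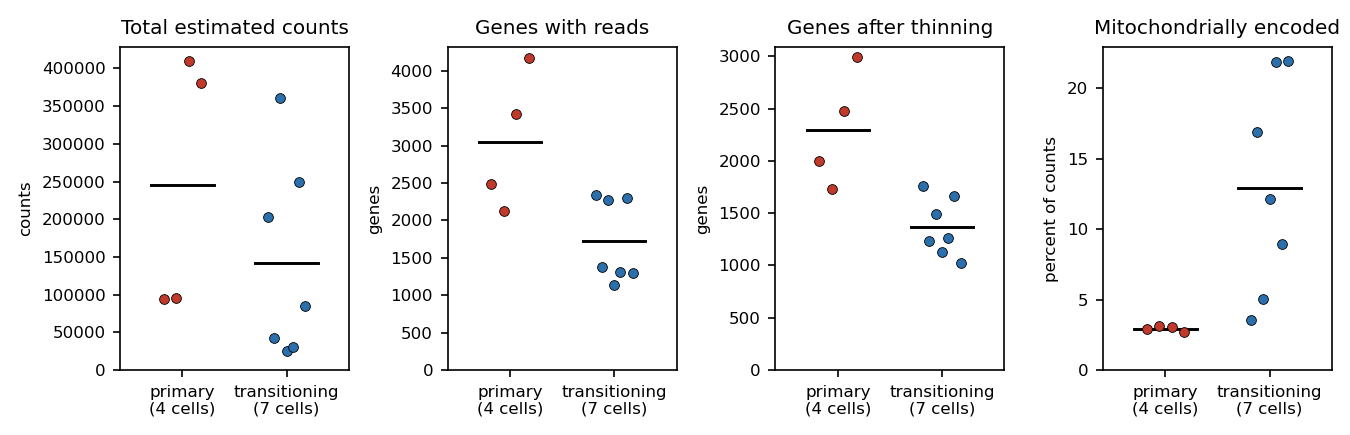
Total estimated counts, genes with reads, genes with reads after thinning to 25072 counts, and percent of counts on mitochondrially encoded genes, for each of the 4 primary and 7 transitioning somatic cells of plate 1 (points are cells, lines are means over cells). The mitochondrially encoded share is the only one of the 4 measures without overlap, at 2.67% to 3.15% in primary and 3.54% to 21.97% in transitioning cells.

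Levels are given as CPM, the count of a gene scaled by the total of its cell, and differences as the log2 ratio of the mean CPM of primary over that of transitioning cells. Fshr had 208 and 221 CPM in primary replicates 3 and 4 and no reads in primary replicates 1 and 2, against no reads in any of the 7 transitioning cells. The mean of primary cells was at least 35.5-fold higher, taking the floor for transitioning cells as 3 counts over the group. Cyp19a1 had reads in 1 primary cell (276 CPM in replicate 3) and in none of the 7 transitioning cells. For Fshr the exact binomial interval (95%) of 2 of 4 primary cells ran over 6.76% to 93.2%, against an upper bound of 40.96% for 0 of 7 transitioning cells. Between primary and transitioning cells of this plate, both genes were thus detected in primary cells only. Among the other somatic cells of the plate, Fshr had reads in 3 of 5 secondary cells. The interval takes cells as independent draws, and with so few cells of 1 sample per stage no verdict on the shares is drawn.

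Inhbb had 63.4, 421, 0 and 110.5 CPM in primary replicates 1 to 4, against 0, 0, 147, 0, 0, 0 and 47 CPM in transitioning replicates 1 to 7. Its cells overlapped, with a log2 ratio of 2.42. Counts over all cells of a stage were 88 in primary and 57 in transitioning cells, and the log2 ratio of the summed counts was 0.65 (0.15 to 1.16, exact binomial split, counting error only). Amh had 814, 1230.2, 7.33 and 466 CPM in primary cells, against 276, 143, 0, 39.9, 0, 116 and 0 CPM in transitioning cells. It had reads in 4 of 4 primary and 4 of 7 transitioning cells, 3 of the 4 primary cells lay above every transitioning cell, and the means of 629 ± 519 CPM (SD, 4 cells) and 82.2 ± 104 CPM (SD, 7 cells) gave a log2 ratio of 2.94. Without the 4 transitioning cells with few genes the log2 ratio of Amh was 2.27. Summed over the 4 markers, they took 0.0491% to 0.165% of counts in primary cells, against 0% to 0.0276% in transitioning cells, with no overlap. Intervals from counts cover counting error only, since PCR copies are counted as separate reads.

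**Figure D2:**
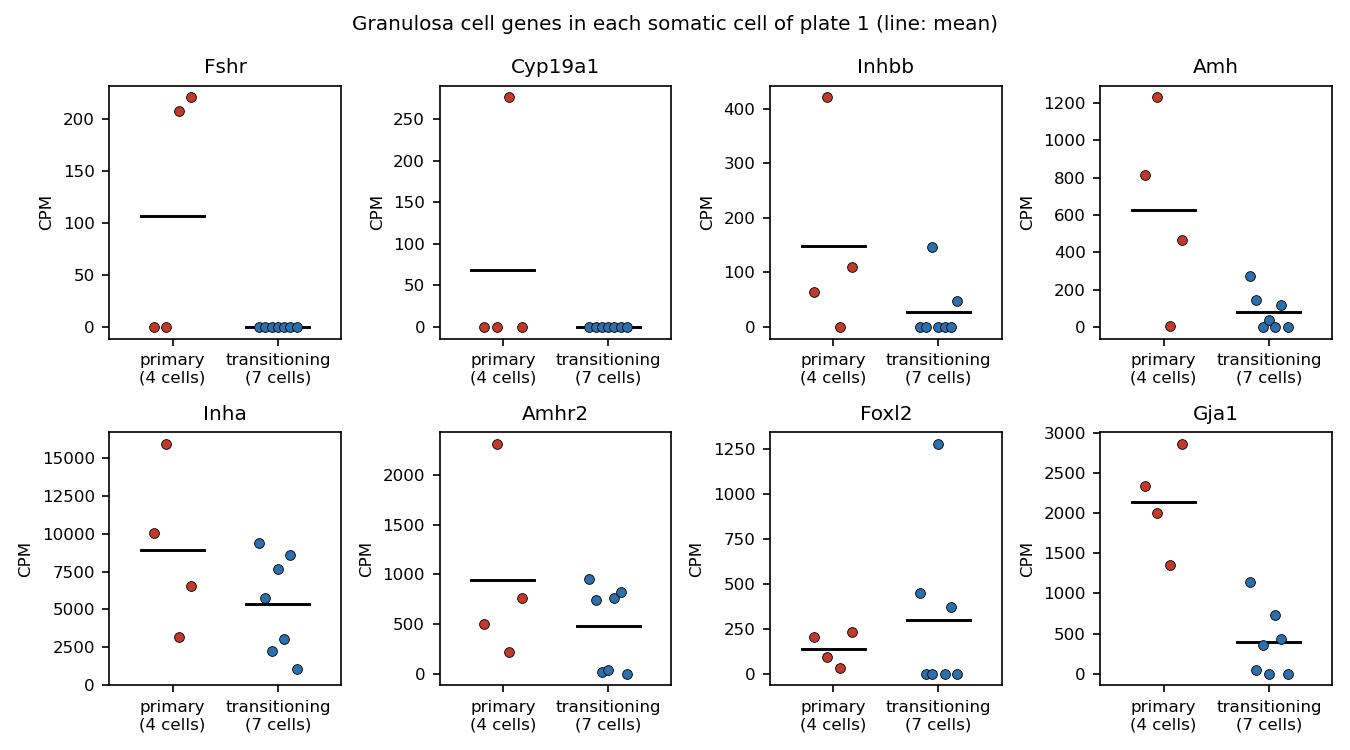
CPM of 8 granulosa cell genes in each of the 4 primary and 7 transitioning somatic cells (points are cells, lines are means over cells). Fshr and Cyp19a1 lie at 0 in all 7 transitioning cells, whereas Inhbb, Amh, Inha, Amhr2 and Foxl2 overlap between the stages and Gja1 does not.

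The granulosa identity genes were chosen, like the 4 markers, with earlier results known, so no contrast between the lists is drawn. Of 16 genes listed, 10 have values on the plate and 6 passed the minimum. That minimum was a mean of at least 50 CPM in 1 stage, of whose cells at least 50% held reads. Of the 6 genes, 1 was at least 2-fold higher and 1 at least 2-fold lower in primary cells, with a median log2 ratio of 0.31. Only 3 of the 6 passed in both stages, with 0 higher and 0 lower. Without the 4 transitioning cells with few genes the median of the list was -0.80. Foxl2, the transcription factor that keeps granulosa cell fate, had 201, 94.6, 31.8 and 229 CPM in primary cells, against 448, 0, 0, 1276, 0, 369 and 0 CPM in transitioning cells. It was found in every primary cell and in 3 of 7 transitioning cells, yet its mean was lower in primary cells (log2 ratio -1.11). Without transitioning replicate 4 the log2 ratio was 0.03. Amhr2, the receptor of anti-Mullerian hormone, had 497, 2313, 215 and 763 CPM in primary cells, against 950.1, 741, 11.1, 39.9, 763, 823 and 0 CPM in transitioning cells (log2 ratio 0.99). Nr5a1, a nuclear receptor that drives steroid synthesis genes, and Gata4, a zinc finger factor of gonadal somatic cells, had log2 ratios of -0.09 and 0.16 with overlapping cells. The one higher gene was Nr0b1, a repressor of Nr5a1 function, with 279 and 208 CPM in primary replicates 3 and 4, the same cells that held Fshr, and no reads in transitioning cells (at least 40.3-fold higher). Those 2 cells also had the most counts of the primary cells (409310 and 380115), and the part of depth was not tested.

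Over all 18533 genes with values on the plate, 2658 passed the minimum, of which 1288 were at least 2-fold higher (48.5%) and 500 at least 2-fold lower (18.8%) in primary cells, 67.3% in all, and the median log2 ratio was 0.92. The minimum bears on this balance, since 1802 of the genes passed only through their level in primary cells and 165 only through their level in transitioning cells. Of the 1802 genes, 1173 were at least 2-fold higher and 129 at least 2-fold lower, and of the 165 genes, 0 were at least 2-fold higher and 155 at least 2-fold lower. Among the 691 genes that passed in both stages, 115 were at least 2-fold higher and 216 at least 2-fold lower, with a median log2 ratio of -0.29. With the minimum set on all 11 cells together, 314 of 1240 genes were higher and 378 lower. After the median of 0.92 was subtracted, 952 genes (35.8%) were higher and 885 (33.3%) lower, so that 51.8% of the genes past 2-fold were higher, against 72.0% before. A count of higher members below is therefore set against 48.5%, and a log2 ratio against 0.92. A count among members that passed in both stages is set against 115 higher and 216 lower of 691.

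**Figure D3:**
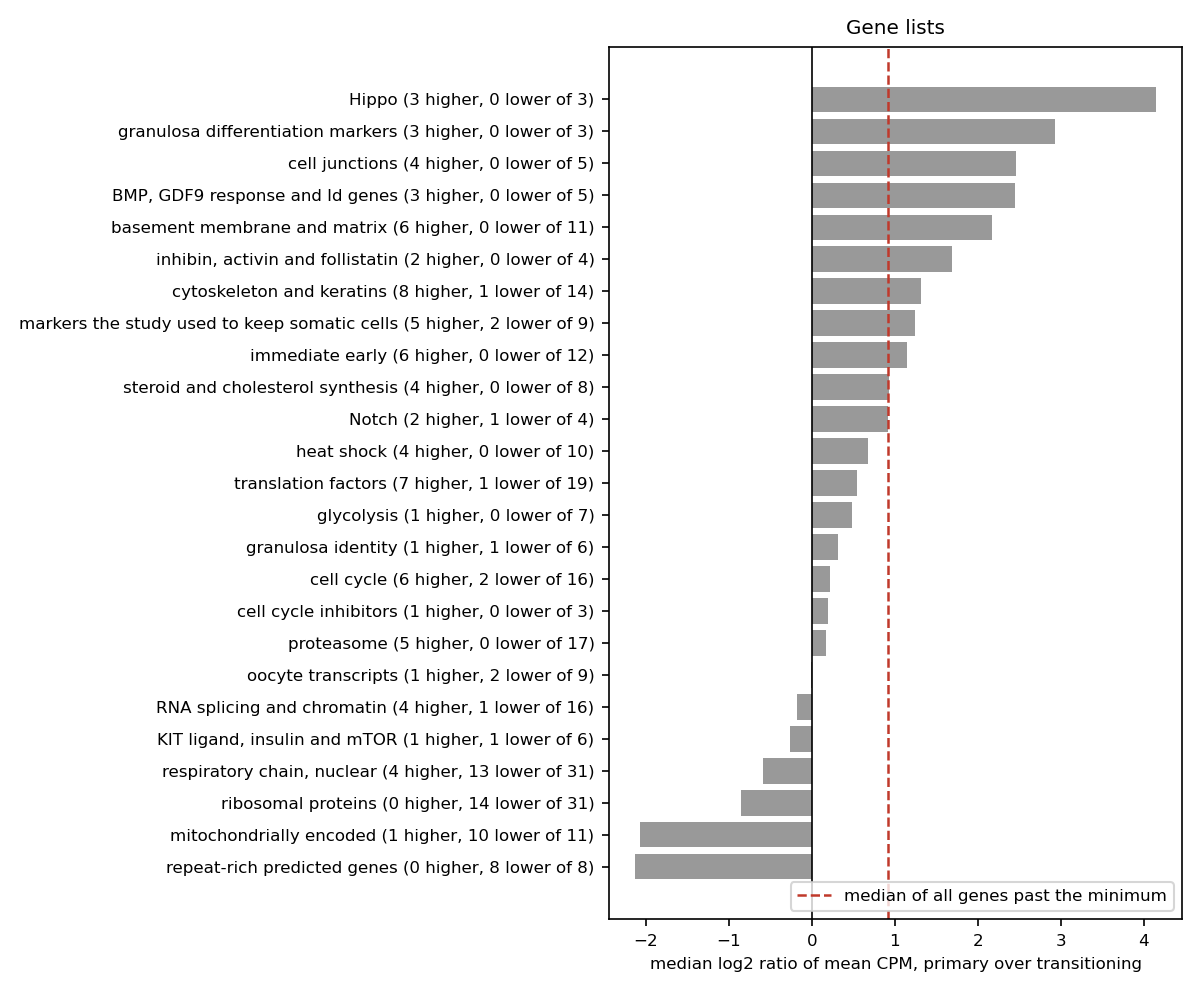
Median log2 ratio of mean CPM, primary over transitioning, for the gene lists with at least 3 members past the minimum (bars), with the number of members at least 2-fold higher and lower. The dashed line marks the median of all 2658 genes past the minimum, 0.92, above the medians of the ribosomal protein, respiratory chain, proteasome, translation factor and glycolysis lists and below those of the junction and matrix lists.

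For 60 of the 2658 genes (2.26%) every primary cell lay above every transitioning cell, and for 3 genes (0.113%) every primary cell lay below every transitioning cell. When the 2 cells with conflicting stages were put in by title, 25 and 1 of these genes remained. Actg1, cytoplasmic gamma actin, had the largest gap between the groups, with 8003, 8931, 11427 and 6544 CPM in primary cells, against 4850.0, 71.7, 1448, 39.9, 66.3, 891 and 602 CPM in transitioning cells (log2 ratio 2.94). The log2 ratio of its summed counts was 2.32 (2.25 to 2.39). Next came Rpn2, a subunit of the complex that adds sugar chains to nascent proteins, with 4628, 2008, 1903 and 1465 CPM in primary cells, against 630.1, 119, 68.5, 0, 0, 0 and 0 CPM in transitioning cells (log2 ratio 4.42). Pdia3, an enzyme that forms disulfide bonds in the endoplasmic reticulum, had 1912, 2671, 3091 and 2349 CPM in primary cells, against 1585, 0, 258, 718, 33.2, 1494 and 0 CPM in transitioning cells (log2 ratio 2.10).

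Caprin1, an RNA-binding protein of cell proliferation, had 2007, 1819, 858 and 1171 CPM in primary cells, against 34.5, 0, 158, 0, 166, 213 and 0 CPM in transitioning cells. Cct4, a subunit of the chaperonin that folds actin and tubulin, had 750.2, 1567, 1644 and 1236 CPM in primary cells, against reads in 2 of the transitioning cells (183 and 161 CPM in replicates 3 and 6). Ogdh and Idh1, enzymes of the citric acid cycle and of NADPH supply, had log2 ratios of 7.65 and 6.68, with reads in 1 and 2 of the 7 transitioning cells. Sumo3, a ubiquitin-like protein modifier, had 1374, 515, 928 and 281 CPM in primary cells and no reads in transitioning cells (at least 257-fold higher). The remaining genes among the 15 largest gaps were Prep, Map4, Arxes2, Pfn2, Ralb, Dctn2 and Cers2. Of these 15 genes, Sumo3, Pfn2, Ralb and Cers2 had no reads in any transitioning cell, and the part of the lower gene numbers of those cells was not tested.

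The genes with every primary cell below every transitioning cell were Lars2, mt-Nd5 and Rpl37, and which genes do so depends on scaling: 1 of the 3 remained with TMM factors and 0 with median-of-ratios factors or with totals over genes on every plate. Lars2, the mitochondrial leucyl-tRNA synthetase, had 645, 1304, 239 and 284 CPM in primary cells, against 2855, 9604, 1795, 7096, 2155, 1983 and 7107 CPM in transitioning cells (log2 ratio -2.91). Mitochondrially encoded mt-Nd5, a subunit of complex I, had 2155, 3354, 3845 and 2778 CPM in primary cells, against 6227, 19993, 4974, 8013, 18403, 13546 and 24763 CPM in transitioning cells (log2 ratio -2.18). Rpl37, a protein of the large ribosomal subunit, had 139, 211, 146 and 121 CPM in primary cells, against 358, 222, 1707, 331, 219.8, 486 and 287 CPM in transitioning cells (log2 ratio -1.74), where transitioning replicate 3 stood far above the rest. Against only the 3 transitioning cells with more than 2000 detected genes, 118 of 2784 genes (4.24%) lay wholly above in primary cells. Another 73 genes (2.62%) lay wholly below. All 60 and all 3 of the genes above were among them, but leaving out cells cannot end a gap, so this adds no support.

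The lists of cell contact and shape had medians above that of all genes, in part through genes that passed the minimum in primary cells only. Among the cell junction genes, 17 of 24 listed have values, 5 passed the minimum, and 4 of these were at least 2-fold higher and 0 lower in primary cells, with a median log2 ratio of 2.46. Only 2 of the 5 passed in both stages, and 1 of these was at least 2-fold higher, beside 115 of 691 over all genes. With so few members no result about the list is read from these counts. Gja1, the connexin that joins granulosa cells to each other, had 2346, 2008, 1361 and 2868 CPM in primary cells, against 1147, 47.8, 361, 0, 729, 438 and 0 CPM in transitioning cells, with no overlap. Means of 2146 ± 631 CPM (SD, 4 cells) and 389 ± 431 CPM (SD, 7 cells) gave a log2 ratio of 2.46, and 1.73 without the 4 transitioning cells with few genes. Dsp, which anchors keratin at desmosomes, rested on primary replicate 1 (940.3 CPM), without which its log2 ratio was -0.12 instead of 3.03. F11r, a junctional adhesion molecule, had a log2 ratio of 1.56, and Ctnna1, which links cadherins to actin, one of 0.08. Summed over the list, they took 0.168% to 0.583% of counts in primary cells, against 0.0718% to 0.249% in transitioning cells, with overlap.

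Among the basement membrane and matrix genes, 19 of 28 listed have values and 11 passed the minimum, of which 6 were at least 2-fold higher and 0 lower, with a median log2 ratio of 2.17. Only 5 of the 11 passed in both stages, with 3 higher and 0 lower, beside 115 higher and 216 lower of 691 over all genes. Taken over all 19 genes, they took 0.717% to 0.953% of counts in primary cells, against 0.133% to 0.711% in transitioning cells, with no overlap. The left-out cell titled transitioning had 1.74% and would end that gap. Hspg2, the basement membrane proteoglycan perlecan, had 0, 21, 569 and 1102 CPM in primary cells and no reads in transitioning cells (at least 140.3-fold higher). Adamts1, a matrix protease, had 898, 0, 349 and 452 CPM in primary cells and no reads in transitioning cells (at least 141-fold higher). Itga6 and Itgb1, the chains of a laminin receptor, had log2 ratios of 2.60 and 2.17. Dag1, dystroglycan, another laminin receptor, had 814, 2324, 2038 and 1426 CPM in primary cells, against 345, 382, 0, 0, 66.3, 1309 and 0 CPM in transitioning cells (log2 ratio 2.46). Fbln1, a matrix glycoprotein, had a log2 ratio of 2.96. The laminin chain Lama1 had reads in every cell and differed little (log2 ratio 0.12), and Sparc, a collagen-binding protein, had a log2 ratio of -0.19. With 6 of 11 members higher, beside 48.5% of all genes, the count is not read as a result about kinds of matrix gene. Transitioning cells with reads of Hspg2 and Adamts1 do occur in the series (Hspg2 in 12 of 16 on plate 4, Adamts1 in 13 of 22 on plate 3).

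Of the cytoskeleton and keratin genes, 20 of 30 listed have values and 14 passed the minimum, of which 8 were at least 2-fold higher and 1 lower, with a median log2 ratio of 1.32. Only 7 of the 14 passed in both stages, with 4 higher and 0 lower, beside 115 higher and 216 lower of 691 over all genes. With 8 of 14 members higher, beside 48.5% of all genes, the main count is not read as a result about the list. Over the list, the 20 genes took 2.18% to 3.93% of counts in primary cells, against 0.153% to 2.44% in transitioning cells, with overlap through 1 transitioning cell (replicate 1). Actb, beta actin, had 6918, 5786, 12775 and 11619 CPM in primary cells, against 5374, 0, 2974, 1385, 1327, 3875 and 8755 CPM in transitioning cells (log2 ratio 1.45). Tuba1b, an alpha tubulin, had a log2 ratio of 1.19. Krt8, a keratin of simple epithelia, had 0, 747, 193 and 153 CPM in primary cells and no reads in transitioning cells (at least 90.5-fold higher). The one lower gene was Tubb2a, a beta tubulin, with 63.4, 0, 0 and 440.5 CPM in primary cells, against 624, 0, 0, 0, 2119, 0 and 1421 CPM in transitioning cells (log2 ratio -2.24).

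**Figure D4:**
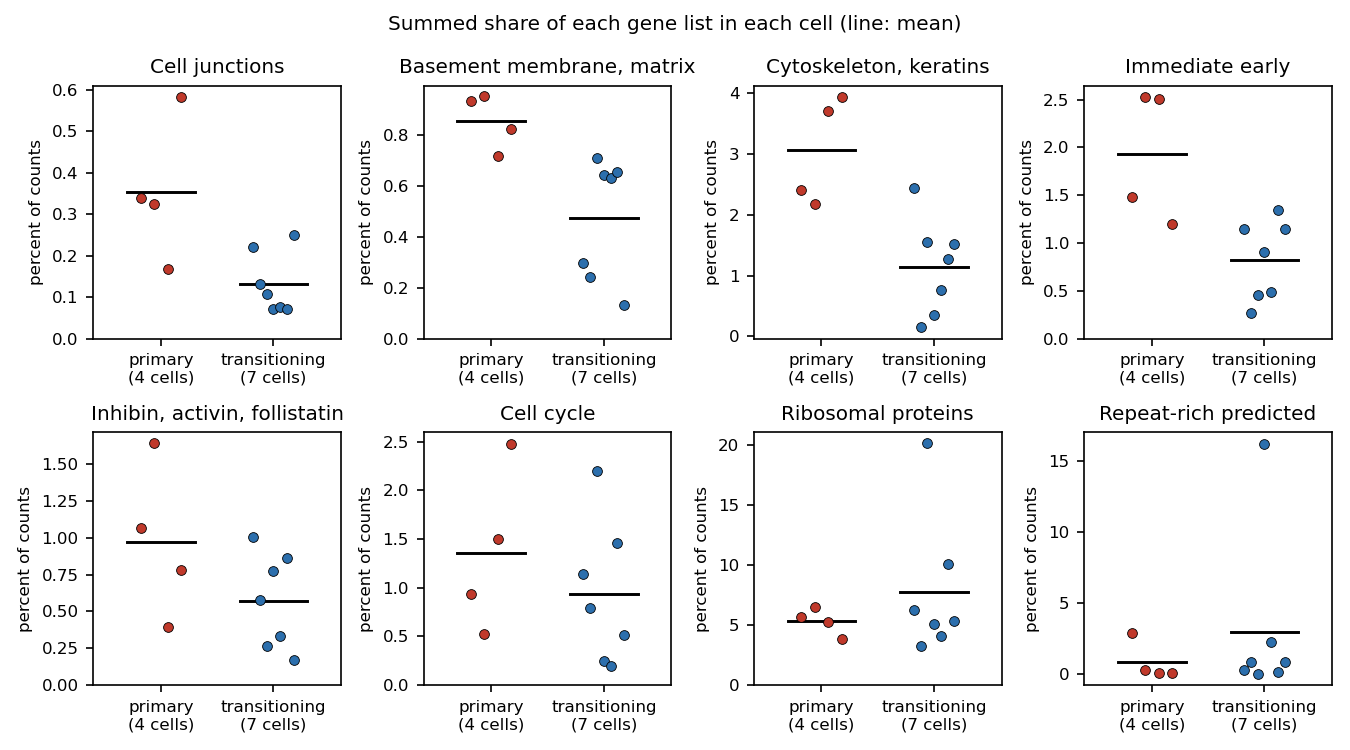
Summed percent of counts of 8 gene lists in each of the 4 primary and 7 transitioning cells (points are cells, lines are means over cells). The basement membrane and matrix share runs from 0.717% to 0.953% in primary cells and from 0.133% to 0.711% in transitioning cells, without overlap, and all other lists shown overlap.

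The TGF beta family offered few members past the minimum. Of the inhibin, activin and follistatin genes, 7 of 12 have values and 4 passed, with 2 higher and 0 lower and a median log2 ratio of 1.69. Only 2 of the 4 passed in both stages, and of these 0 were at least 2-fold higher and 0 lower. Inha, the alpha subunit of inhibin and the most abundant gene of the family, had 10027, 15962, 3144 and 6519 CPM in primary cells, against 9363, 5757, 2244, 7694, 3051, 8584 and 1045 CPM in transitioning cells. The groups overlapped widely, with a log2 ratio of 0.73, below the median of all genes. Fstl3, a secreted antagonist of activin, had reads in 2 of 4 primary and 0 of 7 transitioning cells. Smad3, an activin and TGF beta effector, had a log2 ratio of 0.96. For the BMP and GDF9 response genes, 12 of 22 have values and 5 passed, with 3 higher and 0 lower. Of these 5 genes, 0 passed in both stages, so that this count says nothing of the pathway. The receptor Bmpr1a (log2 ratio 2.45), the pseudoreceptor Bambi (2.65) and the inhibitory Smad7 (3.44) were higher by the mean, each with reads in at most 3 primary cells. Id3, a direct BMP target, had 560.0, 21, 247 and 155 CPM in primary cells, against 418, 0, 0, 0, 0, 715 and 0 CPM in transitioning cells (log2 ratio 0.60).

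Notch and WNT genes gave no common direction. Of the Notch genes, 13 of 17 have values and 4 passed, with 2 higher and 1 lower. The target Hey1 had 210.1 and 376 CPM in primary replicates 3 and 4, against 117 CPM in transitioning replicate 3 (log2 ratio 3.14). Hey2, a related target, had a log2 ratio of -1.17, and Heyl one of 0.54. The receptor Notch2 had a log2 ratio of 1.30 that rested on primary replicate 2, without which it was -1.82. Of the pregranulosa and WNT genes, 15 of 21 have values and only the ligand Wnt6 passed, with 0, 94.6, 0 and 132 CPM in primary cells, against 492, 0, 0, 0, 1260.0, 0 and 0 CPM in transitioning cells (log2 ratio -2.15).

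In the Hippo pathway, 9 of 18 genes have values and 3 passed, all at least 2-fold higher. All 3 passed only through their level in primary cells, and 0 passed in both stages, so that this count says nothing of the pathway. Yap1, the coactivator that the pathway restrains, had 0, 10.5, 63.5 and 129 CPM in primary cells and no reads in transitioning cells (at least 16.8-fold higher). Its target Cyr61 had 0, 2649.7, 5536 and 10.5 CPM in primary cells, against 379, 430.0, 0, 0, 0, 0 and 0 CPM in transitioning cells (log2 ratio 4.15), and is also an immediate early gene. Of the KIT ligand, insulin and mTOR genes, 12 of 24 have values and 6 passed, with 1 higher and 1 lower and a median log2 ratio of -0.27. Tsc2, which holds mTOR complex 1 in check, had 328, 26.4, 214 and 42.2 CPM in primary cells, against 222, 1701, 411, 1077, 0, 820.2 and 32.7 CPM in transitioning cells, with means of 152 and 609 CPM. Igf1, an insulin-like growth factor of granulosa cells, had a log2 ratio of -0.27. Pik3r1, a regulatory subunit of the lipid kinase, had a log2 ratio of 1.14 that was -1.62 without primary replicate 4.

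Among genes of steroid and cholesterol synthesis, 13 of 22 have values and 8 passed, with 4 higher and 0 lower and a median log2 ratio of 0.94, near that of all genes. Cyp51, an enzyme of late cholesterol synthesis, had 42.3, 0, 203 and 408 CPM in primary cells and no reads in transitioning cells (at least 54.1-fold higher). Insig1, which holds back the sterol-sensing pathway, had 708, 715, 17.1 and 726 CPM in primary cells, against 0, 812, 8.32, 0, 66.3, 181 and 0 CPM in transitioning cells (log2 ratio 1.83). Hsd17b1, which makes estradiol from estrone, was found in every primary cell and in 3 of 7 transitioning cells, with a log2 ratio of 0.63.

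Cell cycle genes were present in both stages. Of 47 listed, 26 have values and 16 passed, with 6 higher and 2 lower. The median log2 ratio was 0.21 and turned negative without primary replicate 3 or 4. Without the 4 transitioning cells with few genes the median was -0.027. As a share of counts, they took 0.52% to 2.48% of counts in primary cells, against 0.198% to 2.2% in transitioning cells. Stmn1, a tubulin-binding protein of dividing cells, had 940.3, 1462, 3115 and 1779 CPM in primary cells, against 3682, 0, 4822, 0, 0, 1666 and 1833 CPM in transitioning cells (log2 ratio 0.09). Top2a, the DNA topoisomerase of dividing cells, had 10.6, 0, 432 and 908 CPM in primary cells, against 433, 1792, 549, 0, 0, 52.2 and 0 CPM in transitioning cells (log2 ratio -0.26, and -1.45 to 0.97 when 1 cell was left out). Mcm5, a subunit of the replicative helicase, had a log2 ratio of 0.34 (-1.02 to 2.13 when 1 cell was left out) and Tubb5, a beta tubulin, one of 0.96. The higher members included the helicase subunits Mcm3 (log2 ratio 1.61), Mcm7 (1.45) and Mcm4 (3.77), and the lower ones were Cks2, a partner of cyclin-dependent kinases (-1.18), and Cdca8, of the mitotic passenger complex (-1.82).

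Genes of the mitochondrial genome lay on the other side. Of 13 with values, 11 passed the minimum, with 10 lower and 1 higher in primary cells and a median log2 ratio of -2.07. In sum they took 2.67% to 3.15% of counts in primary cells, against 3.54% to 21.97% in transitioning cells, with no overlap. On other plates the median share of primary cells was 10.0% (plate 2) and 4.32% (plate 5). That of transitioning cells was 5.89% (plate 3) and 6.30% (plate 4), so the order on plate 1 is not a general one. The deposited share of reads on mitochondrial RNA, taken over all reads, overlapped, at 5.16% to 13.7% in primary and 2.03% to 27.2% in transitioning cells. Among them mt-Co1, a catalytic subunit of complex IV, had 8769.5, 12866, 8096 and 5929 CPM in primary cells, against 11016, 41179, 2888, 39618, 52638, 16099 and 49793 CPM in transitioning cells (log2 ratio -1.77). The exception, mt-Co3, had 1274 CPM in primary replicate 4 and under 1 CPM in each of the other 10 cells, from fractional counts. Without the 4 transitioning cells with few genes the median of the list was -0.95. The 8 predicted genes rich in repeats were all lower by the mean, with a median of -2.13 that rested on transitioning replicate 4, without which it was 0.13.

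Ribosomal protein genes and nuclear genes of the respiratory chain had medians below that of all genes. Of 31 ribosomal protein genes past the minimum, 14 were at least 2-fold lower (18.8% of all genes were) and 0 higher, with a median log2 ratio of -0.85. As a share, they took 3.87% to 6.54% of counts in primary cells, against 3.25% to 20.2% in transitioning cells, with overlap, and the highest value was that of transitioning replicate 3. Rplp1, a stalk protein of the large subunit, had a log2 ratio of -2.08, whereas its partner Rplp0 had 5273, 5842, 5986 and 6439 CPM in primary cells, against 10407, 2876, 13132, 119.6, 1326, 8789 and 4179 CPM in transitioning cells (log2 ratio 0.01). Of 31 nuclear respiratory chain genes past the minimum, 4 were higher and 13 lower, with a median of -0.59, which turned to 0.20 by median CPM and 1.30 by mean log2 CPM. The subunit Cox7b had a log2 ratio of -2.23 that was -0.42 without transitioning replicate 3, and the ATP synthase subunit Atp5a1 one of 1.39. The translation factors also had a median below that of all genes, though above 0, at 0.54, with 7 higher and 1 lower of 19. Among them Eef1a1, which brings aminoacyl-tRNA to the ribosome, had a log2 ratio of 1.03.

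Genes known to respond to cell dissociation were also compared. Of 34 immediate early genes listed, 26 have values and 12 passed, with 6 higher and 0 lower and a median log2 ratio of 1.15, near that of all genes. By share of counts, they took 1.2% to 2.53% of counts in primary cells, against 0.265% to 1.34% in transitioning cells, with overlap. Fos and Jun, the partners of the AP-1 factor, had log2 ratios of 1.33 and 1.35. Jun had 7153, 8748, 4867 and 3133 CPM in primary cells, against 3087, 1194, 1623, 3309, 1558, 3830.2 and 1774 CPM in transitioning cells. Of 10 heat shock genes past the minimum, 4 were higher and 0 lower, with a median of 0.68, and Hspa1a, the inducible chaperone, had 63.4, 1329, 0 and 284 CPM in primary cells, against 269, 0, 0, 0, 0, 266 and 0 CPM in transitioning cells. Of 10 upstream regulators named by the study and with values here, 2 passed the minimum, Ddx5, an RNA helicase (log2 ratio 1.17), and Hif1a, the oxygen-sensing factor (1.64). That list was chosen by the study on cells of this series and is not independent evidence.

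Markers of other cell types were few. All 5 defining markers of the surface epithelium (Upk3b, Upk1b, Krt19, Krt7 and Msln), all 4 of leukocytes and all 4 of erythroid cells were at 0 in every cell. Of the 6 stroma markers, Col1a2, Dcn and Lum were at 0 in every cell. The stroma list took up to 0.0472% of counts in primary and up to 0.0797% in transitioning cells, with 0 of its 14 members past the minimum. Each of the 4 endothelial markers had reads in 1 to 2 cells, the highest being Kdr with 932 CPM in transitioning replicate 2, and the list of endothelium and blood took up to 0.0226% in primary and up to 0.0932% in transitioning cells. The study filtered out somatic cells that scored high for oocyte genes. The 185 deposited somatic cells match the number it kept, so this filter limits the level of oocyte transcripts seen here. Oocyte transcripts took 0.0505% to 1.05% of counts in primary cells, against 0% to 1.44% in transitioning cells. Of the defining oocyte markers with values, Dazl was at 0, Ddx4 and Bmp15 had reads in 1 and 2 cells, and Ooep had 0, 116, 0 and 452 CPM in primary cells, against 1467, 0, 547, 0, 0, 189 and 0 CPM in transitioning cells. The wider surface epithelium list, which holds genes that granulosa cells share, such as Krt8, took 0.0243% to 0.173% of counts in primary cells, against 0% to 0.34% in transitioning cells. The part of RNA of other cells in the values above was not tested.

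Fold changes of single genes were largest where 1 stage held a few reads. Sar1b, which forms coated vesicles for export from the endoplasmic reticulum, had 63.4, 609.9, 376 and 266 CPM in primary cells and 2.77 CPM in 1 transitioning cell (log2 ratio 9.70). Acat2, a thiolase, had a log2 ratio of 10.26 that rested on primary replicate 4 (639 CPM). In the other direction, Trpc4ap had 0, 0, 4.89 and 0 CPM in primary cells, against 1354, 23.9, 0, 0, 0, 153 and 1363 CPM in transitioning cells (log2 ratio -8.40), and Dmap1, a chromatin-associated protein, had reads in 1 of 4 primary and 5 of 7 transitioning cells (log2 ratio -7.73). Sar1b was the only one of these 4 genes without overlap between the stages.

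Along the 4 stages of plate 1 the same genes followed different courses. The mean of Inha was 2505, 5391, 8913 and 13239 CPM from the primordial stage to the secondary, and cells of neighbouring stages overlapped throughout. Amh had no reads in the 19 primordial cells, and means of 82.2, 629 and 482 CPM at the 3 later stages. Gja1 had means of 439, 389, 2146 and 3221 CPM in the same order of stages, and its primary and secondary cells overlapped. Actg1 was lowest in transitioning cells, where its mean was 1138 CPM, beside 4712 CPM in primordial cells, 8726 CPM in primary cells and 6472 CPM in secondary ones. Fshr, without reads in primordial and transitioning cells, had reads in 3 of 5 secondary cells.

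**Figure D5:**
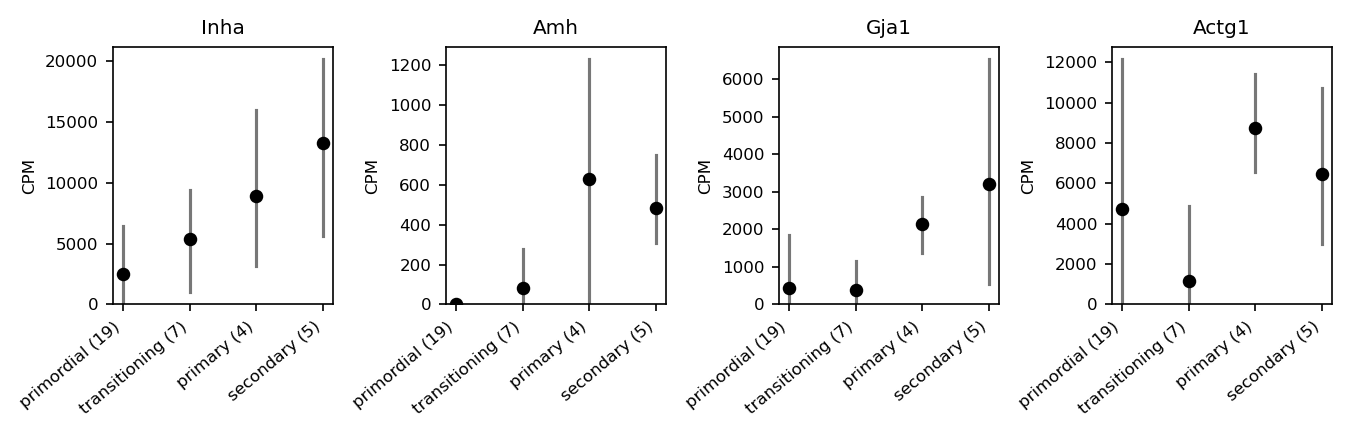
Mean CPM (points) and range over cells (bars) of Inha, Amh, Gja1 and Actg1 in primordial (19), transitioning (7), primary (4) and secondary (5) somatic cells of plate 1. Amh has no reads in primordial cells, the mean of Inha is higher at each later stage with overlapping ranges, and Actg1 is lowest in transitioning cells.

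Somatic cells of these stages on other plates are set beside these values without comparison, since each plate lists its own genes. Amh had reads in 27 of 32 primary cells of plate 2 and 16 of 19 of plate 5, with means of 249 and 2694 CPM, and in 21 of 22 transitioning cells of plate 3 and 16 of 16 of plate 4, with means of 972 and 1513 CPM. Fshr had reads in 8 of 32 and 5 of 19 primary cells and in 6 of 22 and 5 of 16 transitioning cells of those plates, so transitioning cells with Fshr reads do occur in the series. Of the 2 cells left out, the one titled transitioning had 2562 CPM of Gja1 and 219 CPM of Amh, and the one titled primary had 779 CPM of Gja1 and 122 CPM of Amh. Put in by title, they end the gap between the stages for Gja1.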

How the data were processed

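Single somatic cells of plate 1 were compared by title, with stage, plate and quality measures taken from the deposited metadata. The authors deposited estimated counts per gene and cell (22.8% of values above 0 are not whole numbers), aligned to GRCm38. Their methods removed cells under 500 genes and somatic cells that scored high for oocyte genes. The 185 deposited somatic cells match in number those kept after these steps, so the somatic cells were filtered before deposit. The aligner and counter are not given in the sources used here. Read shares were deposited as fractions, the 5′ and 3′ coverage bias as a ratio, and the module scores of Seurat as scores. Counts were divided by the total of each cell (25084 to 409310) to give CPM. Names turned into dates (11) and repeated names (2) were left out, with 0.0434% of counts.

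Genes needed a mean of at least 50 CPM in 1 stage, of whose cells at least 50% held reads. A stage without reads was given a floor of 3 counts over the group. Intervals (95%) are exact. Those of counts cover counting error only, and those of shares of cells take cells as independent draws. Since each stage is 1 sample, no test was run, and expected counts entered no count model: edgeR 4.0.16 and DESeq2 1.42.0 (R 4.3.3) gave scaling factors only. Cells were also thinned to 25072 counts. Python 3.11.15, numpy 2.4.6, pandas 2.3.3 and scipy 1.17.1 were used, and the procedure was tested on simulated data. Named genes were the markers, list members, the 15 largest gaps in each direction among genes without overlap, and the 15 genes each of largest and smallest ratio past the minimum. Members and lists were chosen with earlier results of these data known. Alternatives covered scaling, averaging, minimum, fold, stage assignment and single cells left out.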

Additional observations from a re-analysis of the deposited data

Results flagged for a closer look

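Single cells stood apart from the others of their stage in 12 of 80 groups of values examined. Many of these values lie at or near 0 and the groups share cells, so no rate by chance is given. Among primary cells, replicate 1 had 2.88% of counts on predicted genes rich in repeats (next cell 0.225%), and replicate 3 had 276 CPM of Cyp19a1, with the others at 0. In transitioning replicate 2, the Hippo list took 0.203% (next 0.0456%), the endothelium and blood list 0.0932% (next 0.00399%) and the sprouty and Dusp list of kinase feedback 0.210% (next 0.0397%). In transitioning replicate 4, the cell cycle inhibitors took 0.427% (next 0.0394%), the stroma and theca list 0.0797% (next 0.00352%) and the repeat-rich genes 16.2% (next 2.21%). Both are among the 4 transitioning cells with few genes. Transitioning replicate 5 had 0.517% on upstream regulators (next 0.148%) and replicate 1 had 0.340% on surface epithelium genes (next 0.0695%). Transitioning replicate 3 had 20.2% on ribosomal proteins (next 10.1%) and 147 CPM of Inhbb (next 47.0 CPM).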

How the results depend on the processing

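No paired analysis was possible because replicate numbers only count cells of a title and no test was run. The settings without the 4 transitioning cells with few genes and with the minimum on all cells together were chosen after seeing the data, and with so few cells a value can rest on 1 of them. Genes at least 2-fold higher in primary cells (1288) numbered 2021 by median CPM, 2019 by mean log2, 2630 without a minimum, 597 at 200 CPM and 314 with the minimum on all cells. Those at least 2-fold lower (500) numbered 271 by median CPM, 239 by mean log2, 251 with median-of-ratios scaling, 2030 without a minimum, 258 at 200 CPM, 203 at a fold of 4 and 885 less the median. Genes with every primary cell above (60) numbered 91 with median-of-ratios scaling, 92 with totals over genes on every plate, 25 by title, 23 by metadata, 118 without the 4 cells and 21 with the minimum on all cells. Those with every primary cell below (3) numbered 2 with median-of-ratios scaling, 0 with totals over genes on every plate, 1 by title and 73 without the 4 cells. Leaving out 1 cell at a time gave 900 to 1394, 445 to 618, 67 to 166 and 3 to 10 for these counts. Scaling moved the median log2 ratio of all genes to 1.27 (TMM), 1.62 (median-of-ratios, resting on 148 genes) and 1.38 (totals over genes on every plate), and the higher share of genes past 2-fold to 80.6%, 86.9% and 81.2%. Of 83 genes, 22 changed sign in some setting (18 by leaving out 1 cell), and 66 moved by over 1.5 times when 1 cell was left out. Of those at least 2-fold apart, 9 changed sign. By summed counts Hey2 was at 0.11 and Notch2 at -1.15. By median CPM Foxl2 was at least 5.61, Tubb2a at least 3.39, Hey2 at least 3.56, Wnt6 at least 3.97 and Ooep at least 4.26. These are bounds set by the floor, since the transitioning median of each was 0. A median of 0 was set to the floor in the counts by median CPM as well. For mt-Co3 the value by median CPM was -0.61. By mean log2 Foxl2 was at 2.83, Hey2 at 0.80, Wnt6 at 0.66 and Ooep at 0.039. With median-of-ratios scaling Hey2 was at 0.013, and by title Dsp at -0.050. Leaving out 1 cell gave ranges of -1.46 to 0.029 for Foxl2, -0.12 to 5.996 for Dsp, -1.82 to 2.20 for Notch2, -1.62 to 2.03 for Pik3r1, -3.03 to 0.21 for Ooep, -2.70 to 10.999 for mt-Co3 and -5.13 to 0.13 for the median of the repeat-rich genes, which was 2.99 without the 4 cells. Of 25 list medians, 13 changed sign in some setting (63 of 575 values), 10 of them by leaving out 1 cell. The causes were not tested.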
